A study of Homo sapiens with 8 samples.

Results

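The enzymes described here make cholesterol from small carbon precursors. There are 9 of them among the 18638 gene models counted, namely HMGCS1, MVK, MVD, IDI1 and FDPS of the mevalonate pathway and FDFT1, SQLE, LSS and DHCR7 of the sterol pathway. They were found by gene symbol in the count tables of both cell lines. The set was chosen from results of the HCT116 comparison, in which HMGCS1 was already known as one of the larger falls. Values of these genes in HCT116 are therefore a description without a test, whereas the DLD-1 comparison was not used in the choice and is tested.

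Nascent RNA had been collected by factory-seq, in which RNA held at sites of transcription is freed from isolated nuclei, from 2 human colorectal cancer lines in 8 libraries, with 2 per group. DLD-1 cells carried mAID-mClover on POLR2A and OsTIR1 under a Tet promoter, so that RPB1, the catalytic subunit of RNA polymerase II, bore a degron. They were either untreated or given auxin. HCT116 cells, which carried mAID on TOP2A, were controls or additionally TOP2B-/-. Auxin drives destruction of the tagged protein once TIR1, a plant protein, has been induced. Doxycycline had been added for 24 h to induce it, and auxin for 14 h at 500 µM. The labels of the TOP2B-/- libraries conflict, since titles call them controls while the treatment field and the column names point to auxin. Genotype and auxin therefore cannot be told apart in that comparison. All titles say asynchronous, although sorting of G1 cells is mentioned "where applicable", and whether untreated cells received doxycycline is not stated. Nothing in the labels says that replicates came from separate cultures, so p-values measure only the spread between these libraries. Whether a line was 1 clone is not stated.

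Cholesterol is built from acetyl-CoA. HMGCS1 joins acetoacetyl-CoA with acetyl-CoA on the way to mevalonate, and kinases, a decarboxylase and an isomerase turn mevalonate into activated isoprene units that FDPS links to farnesyl diphosphate. FDFT1 commits farnesyl diphosphate to squalene, SQLE and LSS oxidise and close it to lanosterol, and a further series of sterol enzymes, of which DHCR7 is among the last, gives cholesterol. When sterols are scarce in the endoplasmic reticulum, SCAP escorts the transcription factor SREBP2 out of it, and the released factor raises transcription of most genes of the route. INSIG proteins hold SCAP back when sterols are plentiful.

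The libraries held 10739622 to 62626875 counts over gene models. Those of DLD-1 were the most uneven, as the auxin libraries had at most 14183633 and the controls at least 36906755, whereas HCT116 libraries lay between 32129400 and 36491540. Read density over the genes with the fewest reads in the opposite line was taken as background, which came to 39.5% and 59.5% of all counts in the auxin libraries against at most 9.02% in the other 6. The tagged or deleted genes were read first. POLR2A had 280.9 and 179.9 CPM in DLD-1 controls and 159.4 and 108.0 CPM after auxin, which acts on the protein and need not lower the RNA. TOP2B had 185.7 and 191.7 CPM in HCT116 controls and 134.6 and 131.6 CPM in the libraries labelled TOP2B-/-, so reads over the gene remained there. Of 8 markers of colon epithelium, 7 or 8 reached 1 CPM in each DLD-1 library and 5 or 6 in each HCT116 library, where CDX1, VIL1 and GPA33 were close to 0. In DLD-1 the reads of CDX1 did not exceed the background density. Of 6 markers of other cells, COL1A1 alone exceeded 3 CPM in HCT116.

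The 9 genes were covered by 174 to 12787 reads per library, which makes counting error small for most values and largest for MVD in the second auxin library, where 174 reads were found. Together they took 0.0454% to 0.0660% of all counts in the DLD-1 libraries, 0.108% and 0.114% in HCT116 controls, and 0.0568% and 0.0555% in the libraries labelled TOP2B-/-. All 9 passed the filter on low counts in both comparisons. Their gene models run from 9098 bp for IDI1 to 43737 bp for FDFT1, with a median of 23576 bp against 23632.5 bp over all models, and introns were counted with exons.

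Promoter sequence was looked up because genes of this route are known as targets of SREBP2, which works beside the CCAAT-binding factor NF-Y. RefSeq promoter windows, from 250 bases before to 50 after a start on GRCh38.p14, matched 7 of the 9 genes, and FDFT1 and SQLE had no entry. That of IDI1 belongs to a start 7583 bp upstream of the counted model, so it says little of the model counted here. The stretches below end before the start of the counted model of genes whose windows hold CCAAT, read 5′ to 3′ along the gene, with whole CCAAT pentamers and their complement ATTGG in capitals. They are HMGCS1 from chr5:43313513-43313662 on the minus strand, MVD from chr16:88663150-88663341 on the minus strand, FDPS from chr1:155308616-155308747 on the plus strand, LSS from chr21:46228825-46229024 on the minus strand, and shorter windows around 1 box each for MVK, chr12:109573572-109573601 on the plus strand, and DHCR7, chr11:71448470-71448499 on the minus strand.
HMGCS1: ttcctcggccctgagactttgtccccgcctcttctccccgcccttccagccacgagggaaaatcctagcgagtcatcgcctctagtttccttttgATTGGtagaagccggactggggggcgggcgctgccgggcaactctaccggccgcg
MVD: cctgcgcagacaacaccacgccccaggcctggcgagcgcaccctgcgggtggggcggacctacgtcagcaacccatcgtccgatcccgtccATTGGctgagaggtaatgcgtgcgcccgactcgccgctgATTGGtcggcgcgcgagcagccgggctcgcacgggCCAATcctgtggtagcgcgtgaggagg
FDPS: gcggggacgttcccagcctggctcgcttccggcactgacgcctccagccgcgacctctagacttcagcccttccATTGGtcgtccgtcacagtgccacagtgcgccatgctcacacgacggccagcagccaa
LSS: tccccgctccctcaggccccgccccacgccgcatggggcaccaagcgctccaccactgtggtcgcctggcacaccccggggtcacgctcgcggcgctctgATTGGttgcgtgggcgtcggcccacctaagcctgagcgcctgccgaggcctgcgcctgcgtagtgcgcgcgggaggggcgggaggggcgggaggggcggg
MVK: gtttcaatttttATTGGttcgcagttctca
DHCR7: caggctcctcgaCCAATcacggggcgcgga
In the whole windows MVK held 5 CCAAT boxes, MVD and FDPS 3 each, HMGCS1 and DHCR7 2 each, LSS 1 and IDI1 0.

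Thus 6 of 7 windows held CCAAT on either strand, and 5 of 7 held at least 2. Among 27305 RefSeq windows the share with CCAAT was 35.7%, and among the 11631 windows of genes tested in HCT116 it was 36.1%, with 12.7% holding at least 2. The GC box GGGCGG, known as a site of SP1, was found in 7 of 7 windows against 44.6% of all windows and 66.0% of those of tested genes. The core of the sterol regulatory element, searched as TCACNCCAC on both strands, was in 0 of 7 windows against 1.15% of all, and the E-box CACGTG in 1 of 7 against 7.43%. Of the 10 other enzymes of the route, 9 had a window and 6 of these held CCAAT. Each motif was counted on its own, on both strands, and none of the 4 contains another. A match is a description of letters and not of binding. Over all tested genes with a window in HCT116, the median log2 fold change was 0.02 for 4199 genes with it and 0.04 for 7432 without.

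**Figure D1:**
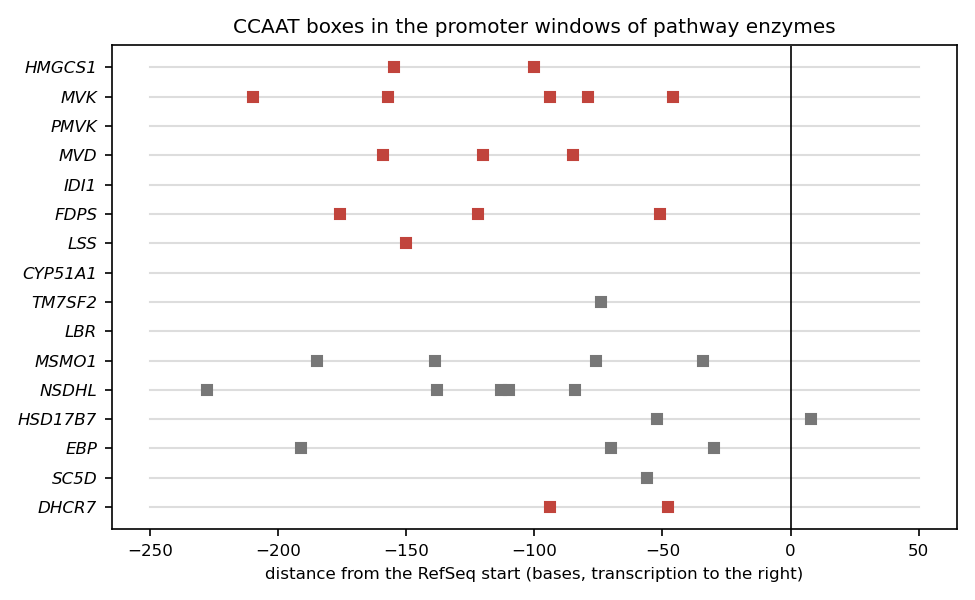
Positions of CCAAT or ATTGG (squares) in the promoter windows of 16 cholesterol enzymes with a RefSeq entry, in pathway order, by distance in bases from the RefSeq start (vertical line). Red marks the 7 enzymes described here and grey the 9 other enzymes. All boxes of the red genes lie upstream of this RefSeq start, between 210 and 46 bases before it, and IDI1 has none. IDI1 apart, the counted models of the red genes start 38 (DHCR7) to 118 (FDPS) bases before it. Some boxes of HMGCS1, MVK and FDPS therefore lie within the counted models.

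Positions are those of the deposited tables on GRCh38. HMGCS1 lies on chromosome 5 from 43287470 to 43313512, MVK on chromosome 12 from 109573695 to 109597270, and MVD on chromosome 16 from 88651940 to 88663149. IDI1 lies on chromosome 10 from 1040024 to 1049121, FDPS on chromosome 1 from 155308748 to 155320666, LSS on chromosome 21 from 46188446 to 46228824, and DHCR7 on chromosome 11 from 71434411 to 71448431. FDFT1 and SQLE share chromosome 8, at 11795573 to 11839309 and at 124998478 to 125022283. Use of strand in counting is not stated, so reads in the last 207 bp of FDPS, where it overlaps RUSC1-AS1, cannot be assigned to either. MVK starts 142 bp from the oppositely directed start of MMAB, an enzyme of cobalamin metabolism. MVD ends 855 bp from CYBA, and RUSC1 begins 182 bp past the end of FDPS. Processed pseudogenes of FDPS are known, and reads shared with them could have been split.

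Levels were compared between genes as CPM per kb of gene model, after scaling by TMM within a cell line. FDPS, the synthase of farnesyl diphosphate, had the highest mean in each of the 4 groups, with 14.7 ± 2.39 CPM per kb in DLD-1 controls, 8.21 ± 2.29 after auxin, 20.6 ± 1.39 in HCT116 controls and 11.2 ± 0.272 in the libraries labelled TOP2B-/- (SD, n = 2 in each). HMGCS1 came next in DLD-1 controls with 8.71 ± 0.768 and in HCT116 controls with 13.5 ± 0.510 CPM per kb (SD, n = 2). IDI1, the isomerase, was at rank 3 in both, with 7.23 ± 0.544 and 10.2 ± 0.532 CPM per kb (SD, n = 2). At the lower end stood MVK in DLD-1 controls with 1.02 ± 0.124 CPM per kb and FDFT1 in HCT116 controls with 1.02 ± 0.0992 CPM per kb (SD, n = 2).

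Some neighbours in this order did not differ beyond their replicates. In DLD-1 controls LSS, FDFT1 and MVK overlapped in turn, and in HCT116 controls the overlapping neighbours were IDI1 with MVD, DHCR7 with SQLE, and MVK with LSS. After auxin FDPS overlapped IDI1, HMGCS1 overlapped DHCR7, and the 3 lowest genes again overlapped in turn. The libraries labelled TOP2B-/- kept the order of genes seen in HCT116 controls in all 9 places, with HMGCS1 at 5.31 and 5.29 CPM per kb beside IDI1 at 5.25 and 5.33. MVD, the decarboxylase, stood at rank 6 in DLD-1 controls with 2.23 ± 0.488 CPM per kb and at rank 4 in HCT116 controls with 9.38 ± 1.43 CPM per kb (SD, n = 2). The lines were scaled separately, and this difference was not tested.

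**Figure D2:**
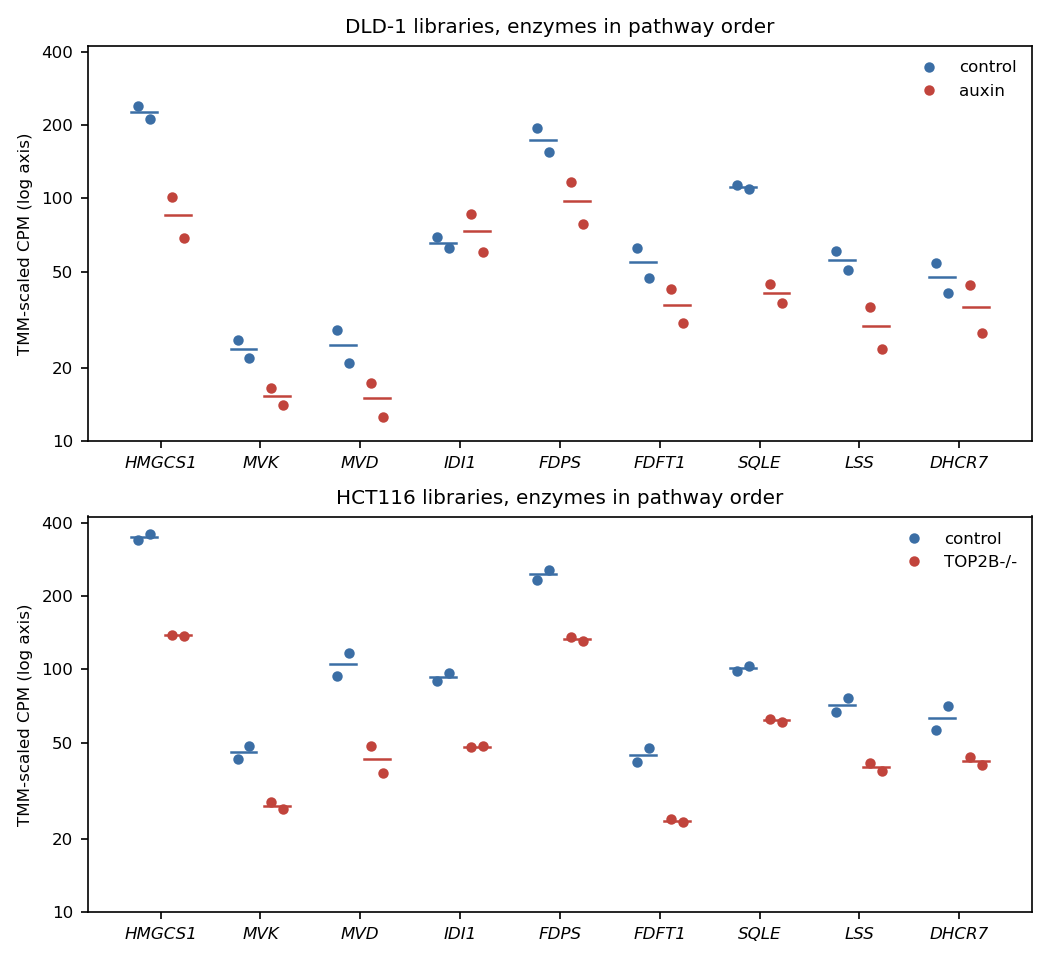
TMM-scaled CPM of the 9 enzymes (log axis) in each library of DLD-1 (top) and HCT116 (bottom). Points are single libraries, 2 per group, and short lines are group means. In HCT116 both libraries labelled TOP2B-/- lie below both controls for every gene, and in DLD-1 the groups overlap for IDI1 and DHCR7.

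In HCT116 the 9 enzymes were all lower in the libraries labelled TOP2B-/-, at 39.3% to 66.3% of the control level. Because the set was chosen from this comparison, these values are given without a test. HMGCS1, which makes HMG-CoA near the start of the route, had 341.7 and 360.5 CPM in the controls and 138.3 and 137.7 CPM in the libraries labelled TOP2B-/-. Both of the latter were far below both controls, at a log2 fold change of -1.35 (SE 0.045), rank 30 from the lowest of 15273 genes tested. MVD, which forms isopentenyl diphosphate, came next with 93.9 and 116.5 against 48.5 and 37.4 CPM, a log2 fold change of -1.29 (SE 0.18). It had the largest SE of the 9, and the groups still did not overlap.

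The remaining mevalonate enzymes were lower to a smaller extent. IDI1 had 89.8 and 96.6 CPM in the controls and 47.8 and 48.5 CPM in the libraries labelled TOP2B-/-, a log2 fold change of -0.95 (SE 0.055). FDPS had 234.3 and 257.7 against 135.5 and 131.0 CPM, at -0.88 (SE 0.063). Mevalonate kinase, MVK, had 42.9 and 48.3 against 28.4 and 26.7 CPM, at -0.73 (SE 0.088). In each of these genes the gap between groups was wider than the spread within either.

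The sterol enzymes lay in the same range. FDFT1, squalene synthase, had 41.5 and 47.6 CPM in the controls and 24.1 and 23.5 CPM in the libraries labelled TOP2B-/-, a log2 fold change of -0.90 (SE 0.092). LSS, lanosterol synthase, had 66.8 and 76.3 against 41.3 and 38.4 CPM, at -0.85 (SE 0.088). SQLE, squalene epoxidase and a rate-limiting step, had 98.6 and 103.7 against 62.5 and 60.9 CPM, at -0.71 (SE 0.048). DHCR7, which makes cholesterol from 7-dehydrocholesterol, had 56.3 and 70.5 against 43.7 and 40.3 CPM. Its log2 fold change of -0.59 (SE 0.13) was the smallest in size of the 9.

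Over the 9 genes the median log2 fold change was -0.88, against 0.03 over all genes tested and -0.001 over the 6466 tested genes within the same range of lengths. Single pairings of a TOP2B-/- library with a control gave medians of -0.99 to -0.78. Second and first controls differed by 0.07 to 0.32 on the log2 scale across the 9 genes, and the TOP2B-/- libraries by -0.38 to 0.02. By edgeR's quasi-likelihood test at an adjusted p of 0.05, 7 of the 9 were called lower and 0 higher, MVD and DHCR7 being the exceptions, where 1.66% of all genes were called lower and 1.75% higher. Both TOP2B-/- libraries lay below both controls for 9 of 9, against 27.6% of all genes. Since the choice of the set used this contrast, nothing is read from either count. Without the first or the second TOP2B-/- library 0 of the 9 were called, as were 0 genes in all, although 2266 and 1286 genes then had an unadjusted p under 0.05 and the medians of the 9 were -0.95 and -0.86.

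Other properties of the libraries moved with this comparison. The 8 colon epithelium markers summed to 3376 and 4244 CPM in the controls, against 2754 and 2447 CPM in the libraries labelled TOP2B-/-, with CDH1 called lower at -0.69. The 6 markers of other cells summed to 45.5 and 48.0 CPM in the controls, against 33.7 and 28.6 CPM. That sum is mostly COL1A1 (-0.67, not called), and the other 4 that were tested had values above 0, from 0.34 to 0.98, none of them called. Their part in the values of the enzymes was not tested. Background density accounted for at most 4.85% of the reads of any of the 9 in an HCT116 library, and its subtraction left the median at -0.84. In bulk samples, fewer cells making an RNA and less RNA per cell cannot be told apart. On chromosome 20 the median of 405 tested genes was -0.56 against 0.04 elsewhere, and none of the 9 enzymes lies there.

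**Figure D3:**
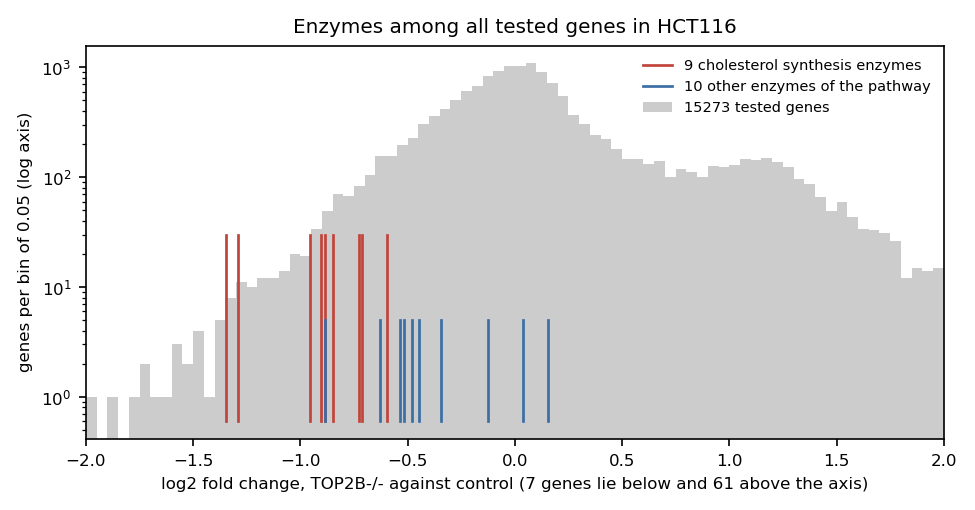
Distribution of log2 fold changes of 15273 genes tested in HCT116, TOP2B-/- against control, in bins of 0.05 (log axis for gene number; 7 genes lie below and 61 above the axis). Tall red lines mark the 9 enzymes, from -1.35 for HMGCS1 to -0.59 for DHCR7, and short blue lines the 10 other enzymes, from -0.88 for MSMO1 to 0.15 for PMVK. Heights of the lines carry no value.

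A further 10 enzymes between acetyl-CoA and cholesterol were taken by their place in the route. Earlier results of these data were known when this list was drawn up, so its HCT116 values are no independent evidence. In HCT116, 2 of the 10 were called lower and 0 higher, against 1.66% and 1.75% of all genes. CYP51A1, the lanosterol demethylase, fell from 131.1 and 149.3 to 90.2 and 91.4 CPM (-0.63, SE 0.077, edgeR adjusted p = 0.043). MSMO1, a sterol methyl oxidase, fell from 114.9 and 129.4 to 66.4 and 66.2 CPM (-0.88, SE 0.072, edgeR adjusted p = 0.027).

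Of the 8 enzymes that did not pass the test, 5 still had both TOP2B-/- libraries below both controls, with log2 fold changes of -0.54 for HSD17B7, -0.52 for ACAT2, -0.48 for EBP, -0.45 for SC5D and -0.34 for NSDHL. Together with the called ones these make 7 of 10 without overlap, where the share over all genes was 27.6%. As for the calls, this count is a description. The groups overlapped for PMVK, the phosphomevalonate kinase (0.15, SE 0.17), for TM7SF2 (-0.13, SE 0.20) and for LBR (0.04, SE 0.062). The latter pair encode sterol reductases of the same step, and LBR is also a receptor of the nuclear lamina. The median of the 10 was -0.46. ACAT2 overlaps TCP1 by 558 bp and TM7SF2 overlaps VPS51 by 7 bp, and HSD17B7 has a near-identical pseudogene, so that reads of these could be shared. No call was made among the 10 without the first or without the second TOP2B-/- library.

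Genes that lead isoprene units away from cholesterol had values near 0 in HCT116. Of 8 such genes found in the tables, which serve prenylation, dolichol and coenzyme Q, 0 were called by edgeR in HCT116, where 1.66% of all genes were called lower and 1.75% higher, and 2 had an unadjusted p under 0.05. DESeq2 called 1 of them, PDSS1, higher, where it called 1474 of all 15273 genes higher and 1821 lower. Their median log2 fold change was 0.07, from -0.14 (SE 0.047) for DHDDS, a subunit of the dolichol synthase, and 0.02 (SE 0.12) for COQ2, up to 0.11 (SE 0.069) for PDSS2 and 0.21 (SE 0.053) for PDSS1, the subunits of the synthase of the coenzyme Q tail. Whether they differ from the 9 enzymes was not tested.

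Of 8 genes of sterol sensing and transport, 3 were called lower in HCT116 and 0 higher, against 1.66% and 1.75% of all genes. DESeq2 called 5 lower and 0 higher, where it called 1821 of all 15273 genes lower and 1474 higher. The median of the 8 was -0.31, and it was -0.35 without the first TOP2B-/- library and -0.32 without the second. INSIG1, which holds SCAP in the endoplasmic reticulum and is itself a target of SREBP, fell from 331.5 and 376.6 to 145.2 and 143.6 CPM (-1.29, SE 0.076, edgeR adjusted p = 0.025). SREBF1, which encodes SREBP1, had 468.3 and 581.9 against 374.2 and 293.0 CPM (-0.65, SE 0.17, edgeR adjusted p = 0.14), without overlap of the groups and without a call. The fall of INSIG1 was known when the list was drawn up, so it is no independent evidence of a direction. The others called lower were SREBF2, which encodes SREBP2 (-0.62, SE 0.061, edgeR adjusted p = 0.032), and STARD4, a sterol carrier (-0.48, SE 0.044, edgeR adjusted p = 0.030). The highest values of the list were those of MBTPS2, a protease that releases SREBP (0.10, SE 0.094), and of SCAP (0.02, SE 0.10), neither of which passed the test.

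Gene models beside the 9 enzymes gave smaller differences in HCT116. MMAB, which shares its upstream region with MVK, had 27.3 and 28.6 CPM in the controls and 20.7 and 18.9 CPM in the libraries labelled TOP2B-/- (-0.50, SE 0.093, edgeR adjusted p = 0.083). CYBA was at -0.54 (SE 0.24), RUSC1 at -0.25 (SE 0.14) and RUSC1-AS1 at 0.22 (SE 0.28), none of them called. RUSC1-AS1 had 1.81 to 2.52 CPM, so the stretch that it shares with FDPS can have added little to the 131.0 to 257.7 CPM of FDPS.

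The DLD-1 comparison asks how the same enzymes stood after RPB1 had been depleted. Because depletion of RNA polymerase II can lower RNA of most genes at once, fold changes hold relative to the scaling of the libraries. Under TMM, 4 of the 9 were called lower by edgeR and 0 higher, where 35.0% of all 17625 genes tested were called lower and 32.2% higher. A share of 4 in 9 is close to that background. Both auxin libraries lay below both controls for 7 of 9, against 46.3% of all genes. The median of the 9 was -0.73, against -0.06 over all genes and -0.19 over the 7232 tested genes in the same range of lengths.

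Squalene epoxidase and HMG-CoA synthase had the lowest values. SQLE fell from 113.4 and 109.2 CPM in the controls to 44.4 and 37.3 CPM after auxin, a log2 fold change of -1.45 (SE 0.17, edgeR adjusted p = 0.0054). HMGCS1 fell from 241.0 and 212.8 to 101.7 and 68.5 CPM (-1.41, SE 0.25, edgeR adjusted p = 0.012). Each auxin library was well below each control for both genes. These 2 were called lower in the main fit and in all 12 alternatives, and their adjusted p reached at most 0.047.

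LSS and FDPS were also called lower. LSS fell from 60.9 and 50.5 to 35.8 and 23.9 CPM (-0.90, SE 0.26, edgeR adjusted p = 0.036), and FDPS fell from 194.9 and 154.6 to 117.2 and 78.6 CPM (-0.84, SE 0.26, edgeR adjusted p = 0.042). The calls of both were lost with library totals in place of TMM, and with a minimum mean CPM of 5. With single libraries left out, LSS ran from -1.12 to -0.64 and FDPS from -1.06 to -0.58. Each was called lower in 7 of the 13 fits, and FDPS was called higher in 1.

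No call was made for the other 5 enzymes under TMM. MVD had 28.8 and 21.1 CPM in the controls and 17.4 and 12.6 CPM after auxin (-0.73, SE 0.29, edgeR adjusted p = 0.078). MVK had 26.2 and 22.1 against 16.7 and 14.2 CPM (-0.65, SE 0.24, edgeR adjusted p = 0.061), and FDFT1 62.8 and 47.0 against 42.4 and 30.7 CPM (-0.59, SE 0.26, edgeR adjusted p = 0.097). In these 3 genes the groups did not overlap, although each missed the threshold. Without the second control MVD (edgeR adjusted p = 0.016) and FDFT1 (edgeR adjusted p = 0.043) were called lower. DHCR7 had 54.1 and 40.7 against 43.9 and 27.8 CPM (-0.40, SE 0.30, edgeR adjusted p = 0.28), and IDI1 69.3 and 62.3 against 86.5 and 60.4 CPM (0.16, SE 0.23, edgeR adjusted p = 0.56). For both of these genes the groups overlapped, and IDI1 alone of the 9 had a mean above that of the controls.

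The direction of several values turned on scaling and background. With library totals in place of TMM the median of all genes moved from -0.06 to 0.57, and 69.1% of all calls were then higher, against 47.9% under TMM. The median of the 9 became -0.09, which is 0.67 below that of all genes, as it was under TMM. Scaling shifts all genes of a library alike, so this distance was nearly fixed in advance. On the scale of library totals HMGCS1 (-0.78) and SQLE (-0.81) were called lower and IDI1 (0.79) was called higher. Of all 17625 genes 3377 were then called lower and 7544 higher. After background had been subtracted, HMGCS1 (-0.28) and SQLE (-0.44) were again called lower, while IDI1 (1.41), FDPS (0.41) and DHCR7 (0.70) were called higher. The median was then -0.04 over the 9 and -0.16 over all 14355 genes, of which 4602 were called lower and 3978 higher.

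Background made up very different shares of the reads. In the auxin libraries it came to 2.89% and 6.17% of the reads of FDPS, 2.99% and 6.12% of those of IDI1, and 7.27% and 15.4% of those of HMGCS1. For SQLE it was 15.2% and 26.0%. Its share was highest for LSS, at 32.0% and 68.6%, and for MVK, at 40.2% and 67.6%. For FDFT1 it was 29.3% and 57.8%, and for MVD 18.3% and 36.0%. In the second auxin library subtraction left 103 reads for LSS, 63 for MVK, 178 for FDFT1 and 111 for MVD. The values of these 4 therefore rest on few reads above background. Markers of other cells rose from a summed 5.60 and 17.6 CPM in the controls to 132.6 and 118.4 CPM after auxin. By edgeR 5 of 6 were called higher, against 32.2% of all genes. In both auxin libraries PTPRC, CD3E, COL1A1 and COL3A1 lay below the background density, at 0.32 to 0.71 times it. PECAM1 lay above it, at 4.81 and 2.49 times, as did ALB, at 2.51 and 1.77 times. After subtraction PECAM1 (10.0, SE 1.16) and ALB (3.70, SE 0.41) were called higher, where 3978 of all 14355 genes were. PECAM1 then had 0 and 10 reads left in the controls. PECAM1 gave 97.6 and 72.5 CPM of the sums after auxin. The median log2 fold change of the 6 was 2.52, and it was 2.76 without the first auxin library and 2.35 without the second. Summed colon epithelium markers were 6802 and 5193 CPM in the controls and 5043 and 3619 CPM after auxin. Single markers went both ways, as CDX2 (-3.51) and KRT18 (-1.72) were called lower and CDX1 (2.85) higher, with a median of -0.01 over the 8. CDX1 lay below the background density in every DLD-1 library, at 0.47 to 0.89 times it, with 0 reads left after subtraction. Their part in the values of the enzymes was not tested.

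**Figure D4:**
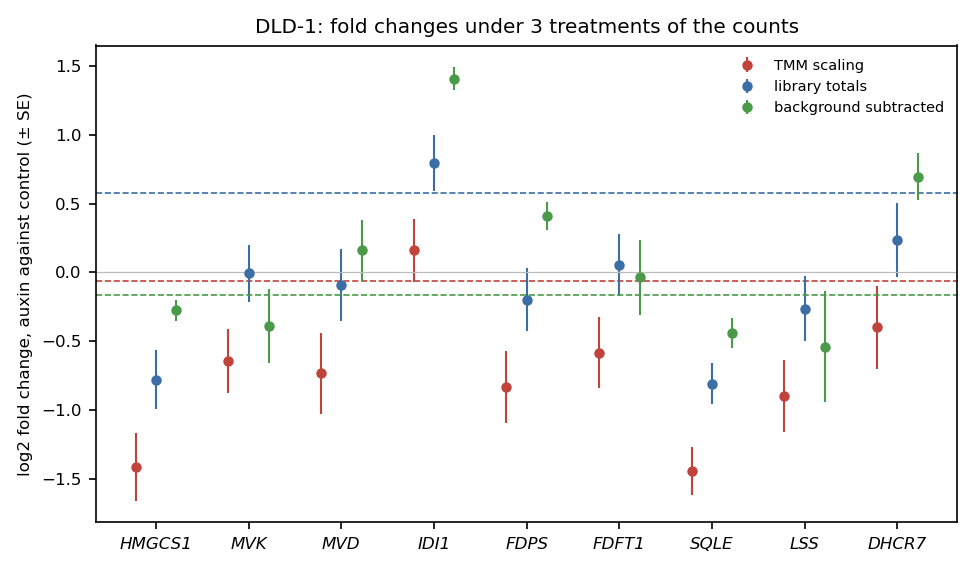
Log2 fold changes of the 9 enzymes in DLD-1, auxin against control, with SE as bars, under TMM scaling (red), library totals (blue) and background-subtracted counts (green). Dashed lines mark the median of all tested genes in the same colour. HMGCS1, SQLE, MVK and LSS lie below 0 in all 3 and IDI1 above 0 in all 3, and MVD, FDPS, FDFT1 and DHCR7 change sign.

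Among the 10 other enzymes in DLD-1, 2 were called lower and 0 higher under TMM, against 35.0% and 32.2% of all genes. NSDHL, a sterol dehydrogenase, fell from 39.0 and 32.2 to 19.8 and 17.7 CPM (-0.92, SE 0.22, edgeR adjusted p = 0.023). Background was 54.9% and 88.4% of its reads in the auxin libraries, and subtraction gave -1.42 (SE 0.56). TM7SF2 fell from 24.2 and 19.6 to 12.9 and 11.2 CPM (-0.86, SE 0.25, edgeR adjusted p = 0.035). Its share of background there was 9.65% and 15.9%, and subtraction gave 0.30 (SE 0.21). Neither fall was called with library totals, with a minimum mean CPM of 5 or after background subtraction. With single libraries left out, NSDHL ran from -1.06 to -0.78 and TM7SF2 from -1.01 to -0.70.

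The uncalled enzymes ran from -0.72 (SE 0.27) for MSMO1 and -0.56 (SE 0.21) for LBR through -0.31 (SE 0.22) for HSD17B7 to values near or above 0. These were 0.02 (SE 0.19) for ACAT2, 0.09 (SE 0.24) for EBP, 0.14 (SE 0.20) for CYP51A1, 0.43 (SE 0.20) for SC5D, the sterol desaturase, and 0.44 (SE 0.32) for PMVK. The median of the 10 was -0.14 under TMM. With library totals 5 of the 10 were called higher and 0 lower, where 7544 of all 17625 genes were called higher and 3377 lower. After background subtraction 7 were called higher and 0 lower, where 3978 of all 14355 genes were called higher and 4602 lower.

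Of the 8 genes of isoprenoid branches, 5 were called lower in DLD-1 under TMM and 0 higher, against 35.0% and 32.2% of all genes, with a median of -0.87. That median became -0.76 without the first auxin library and -0.91 without the second. FNTA, a farnesyltransferase subunit, fell most (-1.89, SE 0.22, edgeR adjusted p = 0.0052), followed by NUS1 (-1.19, SE 0.16, edgeR adjusted p = 0.0071), while the highest values were those of PGGT1B (-0.38, SE 0.17) and DHDDS (-0.41, SE 0.18). In the auxin libraries background came to 20.1% and 40.2% of the reads of FNTA and 31.2% and 47.1% of those of NUS1. For PDSS2 it was 63.5% and 74.4%, and for PDSS1 102% and 125%, both of them called lower. Of the 8 genes of sterol sensing and transport, 6 were called lower and 0 higher, with a median of -1.15. The median of these became -1.20 without the first auxin library and -0.97 without the second. SREBF1 fell by 1.92 on the log2 scale (SE 0.29, edgeR adjusted p = 0.0090) and SCAP by 1.56 (SE 0.18, edgeR adjusted p = 0.0049). Background was 10.1% and 21.9% of the reads of SREBF1 after auxin and 47.2% and 68.4% of those of SCAP. For MBTPS2, also called lower, it was 68.3% and 112%. STARD4 (0.02, SE 0.22) and INSIG2 (-0.50, SE 0.29) were the highest of that list. With library totals 2 of the 8 branch genes were called lower and 0 higher, and after background subtraction 4 lower and 2 higher. For the sensing genes these counts were 4 lower with 1 higher, and 3 lower with 1 higher. Over all genes they were 3377 lower with 7544 higher of 17625, and 4602 lower with 3978 higher of 14355. Next to the 9 enzymes, MMAB fell from 24.8 and 20.9 to 7.66 and 10.3 CPM (-1.35, SE 0.28, edgeR adjusted p = 0.018), whereas MVK across the shared upstream region was not called.

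**Figure D5:**
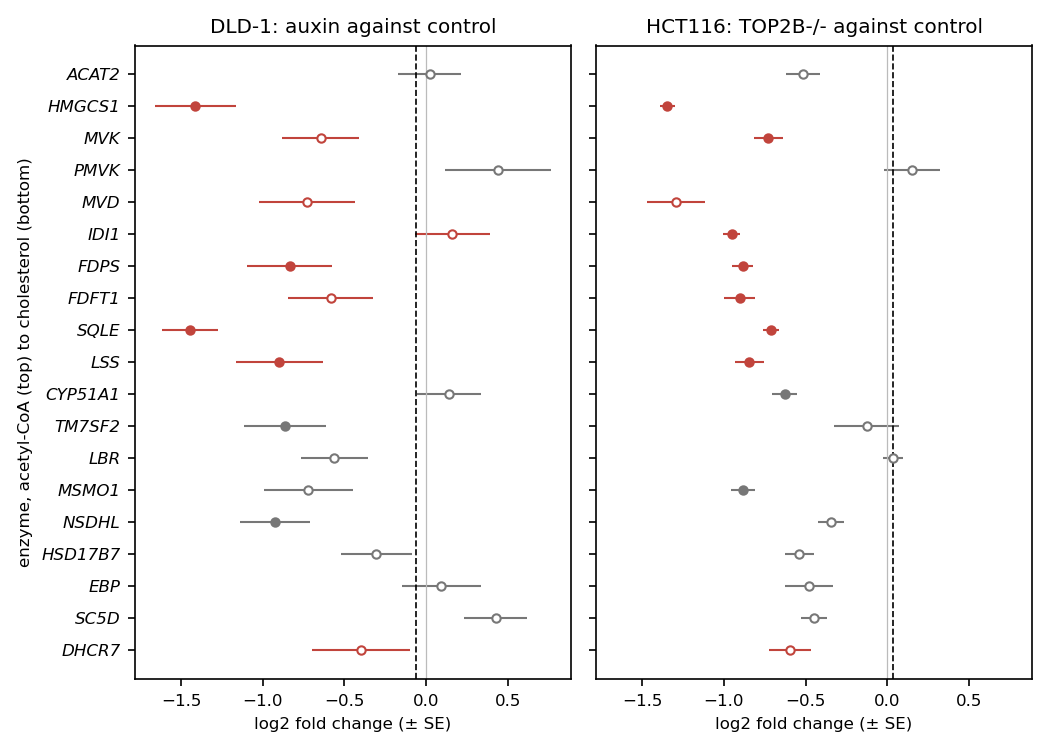
Log2 fold changes with SE for 19 enzymes in pathway order, in DLD-1 (left, auxin against control) and HCT116 (right, TOP2B-/- against control) under TMM. Red marks the 9 enzymes described here and grey the 10 others, filled points were called at an adjusted p of 0.05, and dashed lines are the medians of all genes. In HCT116 all red points lie between -1.35 and -0.59, while in DLD-1 they spread from -1.45 for SQLE to 0.16 for IDI1.

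Set side by side, the comparisons differed in which of the 9 stood lowest, without a test of this difference. Under TMM, HMGCS1 was at 37.5% of control in DLD-1 and 39.3% in HCT116. SQLE was at 36.7% in DLD-1 and 61.0% in HCT116, while IDI1 was at 111.7% in DLD-1 and 51.6% in HCT116. MVD stood at 60.2% and 40.8%. The spread over the 9 in DLD-1, from 36.7% to 111.7%, was wider than that in HCT116, from 39.3% to 66.3%. The DLD-1 levels depend on scaling and background. After background subtraction the log2 fold change of HMGCS1 was -0.28 in DLD-1 and -1.31 in HCT116. For SQLE these values were -0.44 and -0.68, and for IDI1 1.41 and -0.91.

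Patterns over all 8 libraries were then matched with the mean profile of the 9 enzymes, using log2 CPM centred within each line. Among 15205 genes tested in both lines, FDPS, LSS and FDFT1 were themselves near that mean, at ranks 1, 3 and 6, whereas HMGCS1 and IDI1 were at ranks 1020 and 1807. The 5 most similar genes outside the set were OSBPL2 (root mean square difference 0.063), LIPG (0.067), CRNKL1 (0.069), MSMO1 (0.080) and C8orf58 (0.082), each with Pearson's r of 0.98 to 0.99 over the 8 libraries. These genes were picked for closeness over the same libraries, so their r and fold changes follow from the choice. The profile also holds the HCT116 values from which the set was chosen. The libraries share a source within each line, and depth and background differ with auxin in DLD-1. OSBPL2, a member of the oxysterol-binding protein family, had log2 fold changes of -0.92 (SE 0.22) in DLD-1 and -0.91 (SE 0.072) in HCT116. LIPG, which encodes endothelial lipase, had -0.92 (SE 0.21) and -0.95 (SE 0.14), and CRNKL1, a splicing factor, had -0.90 (SE 0.20) and -0.94 (SE 0.089). OSBPL2 and CRNKL1 lie on chromosome 20, whose median in HCT116 was -0.56. Of these 5 genes MSMO1 alone belongs to the route.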

How the data were processed

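Factory-seq RNA of 8 libraries was counted by the authors, who deposited raw read counts per gene model on hg38, with introns included and 1 table per line. Submitters' processing notes name STAR and DESeq2, and versions and strand settings are not stated. The authors also deposited tables of changed genes that hold a normalized signal, log2 fold changes and p-values, which were not used. The supplied paper describes another experiment and gave style only. Members and lists were chosen with earlier results of these data known.

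For each line, its 4 libraries entered edgeR 4.0.16 (R 4.3.3), whose quasi-likelihood test was used (filterByExpr, TMM, two-sided p adjusted by Benjamini-Hochberg over all genes tested, threshold 0.05, 2 residual degrees of freedom). SE were derived from the F statistic. CPM are TMM-scaled. The method was tested on simulated data. Background was the median density over 3111 silent genes per line, the lowest 20% of models of at least 5000 bp by reads per kb in controls of the opposite line, taken chromosome by chromosome. It was subtracted per base with a floor of 0 in 1 alternative. Alternatives were DESeq2 1.42.0, RLE scaling, library totals, no count filter, a mean CPM of at least 5, background subtraction, the replicate block, all 8 libraries and leaving out each library, with the lone partner taken to vary as much as the opposite group.

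Named were all 9 enzymes, 10 others, the 2 highest and 2 lowest of each further list, neighbours within 1000 bp, and the 5 genes closest in profile (prior count 2). SREBF2 and the called genes beyond these were named after their values were seen. One gene of the isoprenoid list was not analysed here, and some genes of the other lists are not reported here and were left out of their counts.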

Additional observations from a re-analysis of the deposited data

How the results depend on the processing

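In DLD-1 the 4 calls among the 9 enzymes became 2 under a mean CPM of at least 5 and 7 with the replicate block, MVK, MVD and FDFT1 among them, and 2 to 6 when single libraries were left out. All of these calls were lower. Over all genes 6177 of 17625 were called lower and 5678 higher in the main fit. With that CPM filter 4465 of 13446 were lower and 4352 higher, and with the block 6519 of 17625 were lower and 6444 higher. The median of the 9 enzymes, -0.73, became -0.092 with library totals, -0.35 with that CPM filter and -0.037 with background subtraction. For the 10 other enzymes the 2 calls became 5, 7 and 4 with totals, subtraction and the block, and 0 to 2 without single libraries, and the median of -0.14 became 0.49 with totals, 0.24 with the CPM filter and 0.63 with subtraction. Of these calls among the 10, the 2 of the main fit and the 4 with the block were lower. The 5 with totals and the 7 with subtraction were all higher. Over all genes 7544 of 17625 were called higher and 3377 lower with totals, and 3978 of 14355 higher and 4602 lower with subtraction. Signs turned with subtraction for MVD (0.16), FDPS (0.41), DHCR7 (0.70), TM7SF2 (0.30), LBR (0.62), MSMO1 (0.46) and HSD17B7 (0.59). They turned with totals for FDFT1 (0.054), DHCR7 (0.24), LBR (0.073) and HSD17B7 (0.33), and with the CPM filter for HSD17B7 (0.078). Without single libraries IDI1 ranged from -0.027 to 0.39, ACAT2 from -0.068 to 0.18 and EBP from -0.063 to 0.27, and in HCT116 TM7SF2 from -0.40 to 0.072 and LBR from -0.036 to 0.045. In HCT116 the 7 calls among the 9 became 0 with the replicate block or all 8 libraries in the fit, and 0 to 9 without single libraries. The 9 kept a sign below 0 in every alternative run. The 2 calls among the 10 became 7 with DESeq2, 4 with the CPM filter, 7 with subtraction, and 0 with the block or all 8 libraries, and 0 to 5 without single libraries. Calls over all genes in HCT116 numbered 521, against 3295 with DESeq2, 1221 with the CPM filter, 2289 with subtraction, 5 with all 8 libraries and 0 with the block, where 2177 genes had an unadjusted p under 0.05. The cause was not tested. Deviations of same-numbered libraries correlated at 0.56 in DLD-1 and -0.82 in HCT116, which with 2 pairs does not show pairing. A crossed block in HCT116, added after seeing the data, called 1808 genes and 5 of the 10. The 3 sensing genes called in HCT116 became 0 with the block or all 8 libraries. Depth limits MVK, MVD and LSS most in the auxin libraries.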
